A study of Glycine max with 72 samples.

Results

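Seeds with an emerged radicle (stage 3) of the low phytic acid line *1mlpa*, which carries the *mips1* mutation, were compared with seeds of the same stage of its normal phytic acid sister line 1MWT, which carries the intact MIPS1 gene. The comparison rests on 6 of the 72 libraries of the study, 3 of each line, each from messenger RNA of 10 seeds, and on 31682 tested genes of the 56044 in the table. Both lines came from a cross of Essex, without the mutation, with V99-5089, the source of *mips1*. The other lines used here are *3mlpa* (*mips1* with both *mrp* mutations), its sister 3MWT (none of the mutations), 2MWT (none) and 2MWT-L (*mrp-n* only), all from CX-1834 crossed with V99-5089, and the earlier stages are dry seeds (stage 1) and seeds imbibed for 8 h (stage 2). Seeds germinated in the dark, and seed coats and radicles were taken off before RNA was extracted at stages 2 and 3, so the values describe the rest of the seed. Each genotype is 1 line, so other differences between the sister lines are part of every comparison, and the p-values measure the spread between seed samples of a line. The short library names of this pair might instead stand for the parents Essex and V99-5089, in which case 2 cultivars are compared. The libraries were placed by the MIPS1 genotype on their labels.

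MIPS1 encodes *myo*-inositol-3-phosphate synthase, which makes inositol phosphate from glucose 6-phosphate, the first step towards phytic acid, the main store of phosphate in seeds. Inositol is also the precursor of galactinol and so of the raffinose sugars, which seeds accumulate as they dry and use up as they germinate. A seed that takes up water restarts respiration while oxygen enters slowly, so fermentation genes are commonly transcribed for a time, and transcripts stored from seed maturation, many of them under control of abscisic acid (ABA), disappear as the radicle emerges.

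The total counted per library lay between 26873210 and 32151314 read pairs in *1mlpa* and between 28065786 and 39759526 in 1MWT. The 10 most abundant genes held 3.67 to 3.70% of the counts in *1mlpa* and 5.24 to 5.60% in 1MWT. Correlations of log2 expression lay between 0.981 and 0.987 within a line and between 0.935 and 0.966 between the lines. On the first principal component of the 6 libraries (67.7% of the variance) replicate 3 of 1MWT was at -38.6 and the other libraries of 1MWT at -73.7 and -71.0, and replicate 3 of *1mlpa* was at 80.2 and the others at 50.1 and 53.0. Of the seed storage genes fixed as markers of seed tissue, the glycinin homologs Glyma.10G037100 and Glyma.13G123500 were expressed in all 6 libraries. The vicilin-like Glyma.20G148300 had only 5 to 16 counts in *1mlpa* and 0 to 2 in 1MWT. The list of seed storage genes held 6 members, of which 5 were tested. Another glycinin homolog that the study names was not among the tested genes, so these markers were not all well expressed. Of 4 tested genes listed by root or radicle terms 1 was higher in *1mlpa*, with a summed expression of 68.8 to 84.0 CPM in *1mlpa* and 51.9 to 59.4 CPM in 1MWT. CPM are counts scaled to a library total multiplied by its TMM factor, so they compare libraries and not genes.

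More genes were higher in *1mlpa* than lower. Genes were called differentially expressed (DEGs) at an FDR under 0.01 where the log2 fold change was beyond 1 in either direction in edgeR's quasi-likelihood test, and 1536 genes (4.85% of those tested) were DEGs. Of these, 1333 (4.21% of the genes tested) were higher in *1mlpa* and 203 (0.641%) were lower. The median over all tested genes was -0.04 on the log2 scale. It lay between -0.07 and 0 under the other scalings, filters and fits with all replicates. The log2 fold change was over 2 in 471 of the higher DEGs, over 3 in 135 and over 4 in 42, and it was under -2 in 33 of the lower DEGs, under -3 in 6 and under -4 in 0 of them. The 3 libraries of *1mlpa* were all above those of 1MWT in 1330 of the higher DEGs and all below in 203 of the lower DEGs, where 48.4% of all tested genes did not overlap between the lines. The number of DEGs fell to 750 without replicate 1 of 1MWT, 705 without replicate 2 of 1MWT and 711 without replicate 3 of *1mlpa*, and 573 genes (516 higher and 57 lower) were called in all 6 fits that left out 1 library each. A test of a log2 fold change beyond 1 (glmTreat) called 164 higher and 6 lower genes.

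**Figure D1:**
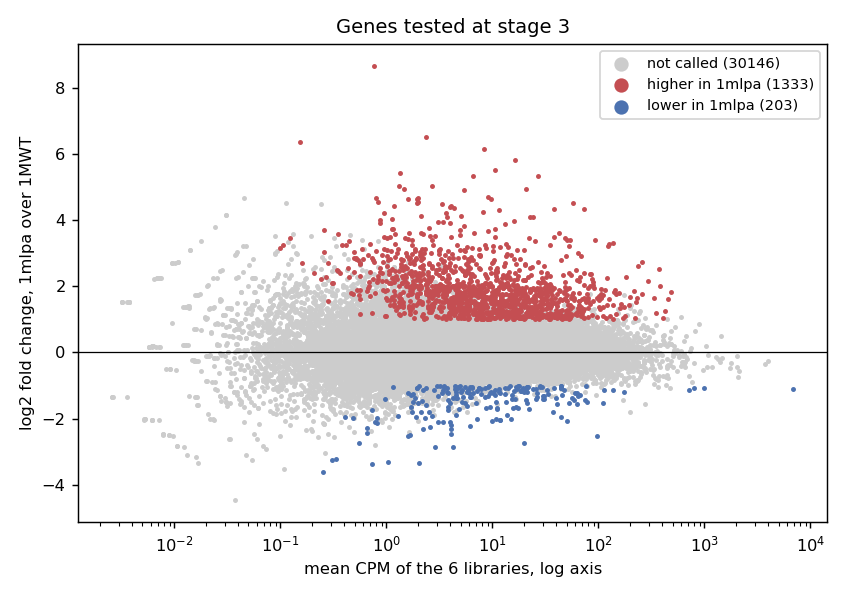
Each point is 1 of the 31682 genes tested at stage 3, with its mean expression in the 6 libraries (CPM, log axis) on the horizontal axis and the log2 fold change of *1mlpa* over 1MWT on the vertical axis. The 1333 DEGs higher in *1mlpa* (red) outnumber the 203 lower DEGs (blue), and both are spread over low and high expression.

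Gene names were taken from the study's text and from the *Arabidopsis thaliana* homologs in its tables, which cover 3015 of the tested genes. The study drew up these tables from genes that differed in these samples. Of the genes with a homolog 17.9% were higher DEGs and 2.62% were lower DEGs, with a median log2 fold change of 0.09, and lists of named genes are read beside these shares. They are not independent evidence of a direction.

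Genes of fermentation had some of the highest fold changes. All 4 tested genes of the list of hypoxia and fermentation were higher DEGs (median log2 fold change 4.10). Pyruvate decarboxylase takes pyruvate from glycolysis to acetaldehyde, the first step of ethanol fermentation. The PDC4 homolog Glyma.01G118000 was at 33.6, 36.9 and 86.2 CPM in *1mlpa* and at 0.437, 1.14 and 2.27 CPM in 1MWT. The lines did not overlap, and the log2 fold change was 5.35 (standard error 0.52, adjusted p = 7.92e-06 by edgeR's quasi-likelihood test). The other PDC4 homolog, Glyma.03G055100, was at 62.3, 69.9 and 202 CPM in *1mlpa* and at 1.59, 3.13 and 9.89 CPM in 1MWT (log2 fold change 4.51, standard error 0.60, adjusted p = 8.36e-05). The PDC1 homolog Glyma.07G153100 was at 486, 540 and 883 CPM in *1mlpa* and at 56.9, 118 and 154 CPM in 1MWT (log2 fold change 2.53, standard error 0.31, adjusted p = 4.72e-05). In all of these genes replicate 3 was the highest library of either line. Reads of close copies that map to both were not counted, so the values of such pairs are uncertain.

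Lactate dehydrogenase takes the other route from pyruvate, and both of its homologs were higher DEGs. Glyma.05G058100 was at 236, 177 and 313 CPM in *1mlpa* and at 61.4, 72.2 and 74.8 CPM in 1MWT (log2 fold change 1.80, standard error 0.22, adjusted p = 4.71e-05). Glyma.01G210400 was at 3.78, 10.6 and 13.5 CPM in *1mlpa* and at 0.25, 1.2 and 0.729 CPM in 1MWT (log2 fold change 3.69, standard error 0.64), and its call was lost without replicate 3 of *1mlpa* (adjusted p = 0.0108). Alcohol dehydrogenase, which makes ethanol from acetaldehyde, had 2 tested homologs of ADH1, of which 1 was called. Glyma.04G213900 was at 10.7, 16.3 and 31.2 CPM in *1mlpa* and at 0.25, 2.10 and 2.82 CPM in 1MWT (log2 fold change 3.50, standard error 0.63, adjusted p = 0.00102). Glyma.13G035200 was at 5.29, 4.68 and 3.88 CPM in *1mlpa* and at 4.27, 1.18 and 7.81 CPM in 1MWT, and the lines overlapped (log2 fold change 0.05, adjusted p = 0.97, and negative without replicate 2 of 1MWT or replicate 1 of *1mlpa*). The difference between the 2 homologs was not tested.

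A wider list of 32 homologs of *Arabidopsis* genes known to respond to low oxygen was drawn up after values of these genes had been seen. Of these 20 were higher DEGs, 0 were lower DEGs and 32 had a positive log2 fold change, with a median of 1.68, and 11 were called in all 6 fits without 1 library. Their summed expression was 2966 to 4413 CPM in *1mlpa* and 698 to 1288 CPM in 1MWT. Fewer of these genes were called before radicle emergence. In dry seeds 13 of the 32 were called higher in *1mlpa* and 0 lower (median 1.22). Of all tested genes 4.34% were higher there, and of the 3015 with a homolog 473 were. In imbibed seeds 2 of the 32 were called higher and 0 lower (median 0.68). Of all tested genes 1.98% were higher there, and of the 3015 with a homolog 300 were. The share of the list in imbibed seeds was thus not above that of genes with a homolog. The list held regulators. HRA1, a trihelix factor that restrains the low-oxygen response in *Arabidopsis*, had the homolog Glyma.03G189600, at 109, 96.3 and 159 CPM in *1mlpa* and at 3.92, 26.2 and 18.3 CPM in 1MWT (log2 fold change 2.92, adjusted p = 0.000379). Replicate 1 was the lowest library of 1MWT here, as in several genes of this list. RAP2.3, an ERF factor whose protein is broken down when oxygen is present, had the homolog Glyma.02G016100, at 157, 153 and 231 CPM in *1mlpa* and at 30.4, 45.0 and 69.1 CPM in 1MWT (log2 fold change 1.90, adjusted p = 0.000171). The LBD41 homolog Glyma.13G046300 was at 113, 106 and 130 CPM in *1mlpa* and at 5.37, 50.2 and 29.3 CPM in 1MWT. Its log2 fold change was 2.04 (adjusted p = 0.00854), and the call was lost without replicate 3 of 1MWT and without any 1 of the *1mlpa* libraries, with an adjusted p of up to 0.0359.

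The list also held enzymes. The homolog of ACO1, which makes ethylene, was Glyma.05G222400, at 85.0, 80.1 and 146 CPM in *1mlpa* and at 16, 20.7 and 18.9 CPM in 1MWT (log2 fold change 2.49, adjusted p = 4.01e-05). The acyl desaturase homolog Glyma.14G121400 (SAD6) was at 371, 467 and 590 CPM in *1mlpa* and at 56.8, 132 and 127 CPM in 1MWT (log2 fold change 2.18, adjusted p = 0.000195). Homologs of the haemoglobin HB1, which removes nitric oxide under low oxygen, were not called. Glyma.11G121700 had a log2 fold change of 0.53 (adjusted p = 0.281) and Glyma.11G121800 one of 0.66 (adjusted p = 0.247). Outside this list, 2 genes of glycolysis are named, with calls in opposite directions. No list of glycolysis genes was drawn up, so they give no share. Glyma.02G222400, a cytosolic aldolase, was higher (log2 fold change 1.26, adjusted p = 0.00118, not called without replicate 1 of 1MWT or replicate 3 of *1mlpa*, up to 0.0125). Glyma.03G189700, a pyruvate kinase, was lower (log2 fold change -1.63, adjusted p = 0.0018, not called without replicate 1 or 3 of *1mlpa*, up to 0.0147), at 4.26, 5.06 and 4.63 CPM in *1mlpa* and 13.9, 13.3 and 16.1 CPM in 1MWT.

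**Figure D2:**
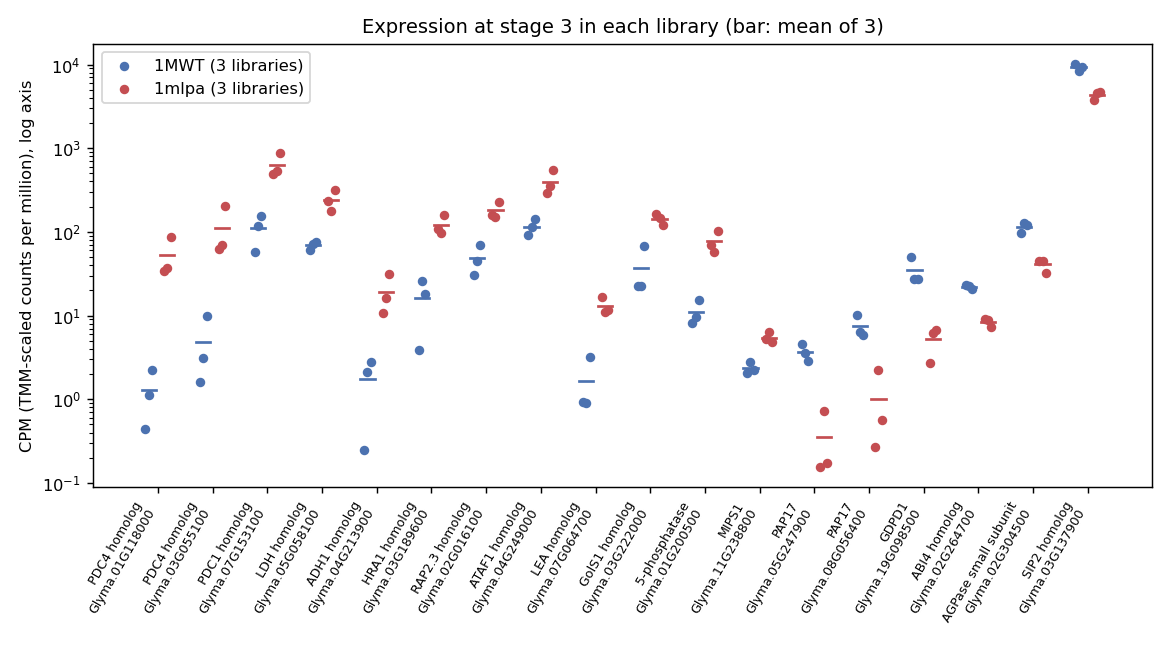
Expression (CPM, log axis) of 18 genes at stage 3, with 1 point for each of 3 libraries of 1MWT (blue) and *1mlpa* (red) and a bar at the mean of 3. The 2 lines do not overlap in any of the genes, and *1mlpa* is higher in the first 12, from the PDC4 homologs to MIPS1, and lower in the last 6, from PAP17 to the SIP2 homolog.

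The DEGs among genes of phosphate homeostasis were lower in *1mlpa*. Of 6 tested genes of phosphate homeostasis 3 were lower DEGs and 0 were higher DEGs, with a median log2 fold change of -1.88, and all 6 were negative. PAP17 encodes an acid phosphatase that plants induce when phosphate is short. Its gene Glyma.05G247900 was at 0.157, 0.725 and 0.172 CPM in *1mlpa* and at 4.6, 3.58 and 2.85 CPM in 1MWT, 10.1 times lower in *1mlpa* (log2 fold change -3.34, standard error 0.50, adjusted p = 0.000234). A second PAP17 gene, Glyma.08G056400, was at 0.269, 2.21 and 0.56 CPM in *1mlpa* and at 10.0, 6.34 and 5.85 CPM in 1MWT (log2 fold change -2.84, adjusted p = 0.00214). Its call was lost without replicate 1 of either line or replicate 3 of *1mlpa*, with an adjusted p of up to 0.0219. GDPD1 is a phosphodiesterase that frees glycerol phosphate from lipids. Its gene Glyma.19G098500 was at 2.71, 6.16 and 6.76 CPM in *1mlpa* and at 50.2, 27.1 and 27.5 CPM in 1MWT (log2 fold change -2.74, standard error 0.36, adjusted p = 7.57e-05). The *lpa* libraries were below the normal ones in each of these genes. The other GDPD1 gene of the study, Glyma.16G052000, was at 0.493 to 0.801 CPM in *1mlpa* and 1.24 to 1.51 CPM in 1MWT and was not called (log2 fold change -1.01, adjusted p = 0.0673).

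The 12 tested homologs of *Arabidopsis* genes of phosphate starvation, a list also drawn up after values had been seen, held calls in both directions. There were 2 lower and 1 higher DEGs among them and the median log2 fold change was -0.48. The lower DEGs were a phospho*enol*pyruvate carboxylase kinase (Glyma.03G251400, log2 fold change -2.21, adjusted p = 0.00302) and Glyma.13G113000, a homolog of AT5G20790 (log2 fold change -2.51, adjusted p = 0.0018). The higher DEG was Glyma.07G011900, a homolog of the phosphatase AT1G17710, at 3.47, 1.97 and 5.92 CPM in *1mlpa* and 0.218, 0.364 and 0.856 CPM in 1MWT (log2 fold change 2.96, adjusted p = 0.00169). None of these 3 calls was kept in all fits without 1 library. That of the kinase was lost in each fit but the one without replicate 2 of *1mlpa* (adjusted p up to 0.0273). That of Glyma.13G113000 was lost without replicate 1 or 2 of 1MWT or replicate 1 or 3 of *1mlpa* (up to 0.0157), and that of Glyma.07G011900 without replicate 1 or 2 of 1MWT or replicate 3 of *1mlpa* (up to 0.0171).

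Among genes of phytic acid synthesis and transport 1 of 7 tested was a higher DEG and 0 were lower, with a median log2 fold change of -0.04. MIPS1 itself (Glyma.11G238800, chr11:33319226-33322244 of Wm82.a2.v1, minus strand) was at 5.26, 6.28 and 4.80 CPM in *1mlpa* and at 2.04, 2.81 and 2.22 CPM in 1MWT. The lines did not overlap, but the gene was not called (log2 fold change 1.21, standard error 0.33, adjusted p = 0.0203). *mips1* is a point mutation, so this transcript does not check the labels. The DEG was the inositol-tetrakisphosphate kinase ITPK1 (Glyma.01G016700), which adds phosphate to inositol phosphates, at 4.64, 5.63 and 7.30 CPM in *1mlpa* and at 2.29, 2.12 and 2.63 CPM in 1MWT (log2 fold change 1.31, adjusted p = 0.00141, not called without replicate 1 or 2 of 1MWT or replicate 3 of *1mlpa*, up to 0.0145). The other ITPK1 gene of the study, Glyma.09G206100, was not called (log2 fold change -0.04). Nor were the ITPK4 kinase genes Glyma.11G218500 (-0.16) and Glyma.18G038800 (-0.11). The transporter genes MRP-L (Glyma.19G169000, log2 fold change 0.44, adjusted p = 0.219) and MRP-N (Glyma.03G167800, log2 fold change -0.25, adjusted p = 0.609) were not called.

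A pair of homologs of a type I inositol polyphosphate 5-phosphatase, an enzyme that ends inositol trisphosphate signals, was higher. Glyma.01G200500 was at 70.5, 58.1 and 102 CPM in *1mlpa* and at 8.22, 9.56 and 15.4 CPM in 1MWT (log2 fold change 2.79, standard error 0.30, adjusted p = 2.6e-05). Glyma.11G041600 was at 44.8, 34.2 and 52.8 CPM in *1mlpa* and at 9.30, 10.2 and 10.4 CPM in 1MWT (log2 fold change 2.14, standard error 0.25, adjusted p = 3.45e-05). These 2 genes were chosen after their values were seen.

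Galactinol synthase joins galactose to inositol, and 2 of its 4 tested genes were higher DEGs, with a median log2 fold change of 1.5 for the 4. The GolS1 homolog Glyma.03G222000 was at 162, 148 and 122 CPM in *1mlpa* and at 22.3, 22.7 and 67.5 CPM in 1MWT (log2 fold change 1.94, adjusted p = 0.00188). Replicate 3 of 1MWT was nearest to *1mlpa*, and the call was lost without replicate 1 or 2 of 1MWT, with an adjusted p of up to 0.0179. The GolS2 homolog Glyma.03G229800, of low expression, had a log2 fold change of 1.81 (adjusted p = 0.00836, called only in full and without replicate 2 of *1mlpa*, up to 0.0481 in the other fits without 1 library). SIP2, which cuts galactose from raffinose in *Arabidopsis*, had the homolog Glyma.03G137900 at 3726, 4603 and 4734 CPM in *1mlpa* and at 10113, 8428 and 9382 CPM in 1MWT. It was 2.14 times lower in *1mlpa* (log2 fold change -1.10, standard error 0.26, adjusted p = 0.00749), and the call was lost in each of the 6 fits without 1 library, with an adjusted p of up to 0.0483.

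Late embryogenesis abundant (LEA) and maturation genes had positive fold changes, but few were called. All 8 tested genes had a positive log2 fold change (median 1.28), and 2 were DEGs. Glyma.07G064700, a homolog of the LEA14 gene AT1G01470, was at 16.8, 10.9 and 11.8 CPM in *1mlpa* and at 0.936, 0.90 and 3.19 CPM in 1MWT (log2 fold change 2.96, adjusted p = 0.000264). Glyma.09G112100, a homolog of AT5G06760, was at 152, 84.8 and 98.2 CPM in *1mlpa* and at 32.7, 34.2 and 40.5 CPM in 1MWT (log2 fold change 1.64, adjusted p = 0.000827). The summed expression of the 8 genes was 830 to 1019 CPM in *1mlpa* and 227 to 636 CPM in 1MWT, and replicate 3 was the highest of 1MWT in the 2 genes named. Of 5 tested seed storage genes, the vicilin-like Glyma.02G145700 was a DEG (55.1, 64.8 and 69.2 CPM in *1mlpa*, 10.6, 7.99 and 36.9 CPM in 1MWT, log2 fold change 1.77, adjusted p = 0.00508, called only in full and without replicate 3 of 1MWT, up to 0.0406 in the other fits without 1 library). The glycinin homologs had log2 fold changes of -0.70 for Glyma.10G037100 (adjusted p = 0.102) and 0.19 for Glyma.13G123500 (adjusted p = 0.832).

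Of 13 tested genes of ABA metabolism and signalling 7 were higher DEGs and 1 was a lower DEG, with a median log2 fold change of 1.02. ATAF1 is a NAC factor that responds to drought and ABA. The study names 4 homologs of it, each as higher in *1mlpa* or *3mlpa*. All 4 were higher DEGs here, and their direction is not independent evidence. Glyma.04G249000 was at 290, 353 and 544 CPM in *1mlpa* and at 92.3, 113 and 142 CPM in 1MWT (log2 fold change 1.77, standard error 0.27, adjusted p = 0.000265). Glyma.06G114000 had a log2 fold change of 1.89 (adjusted p = 0.000448), Glyma.04G208300 of 1.34 (adjusted p = 0.00296) and Glyma.05G195000 of 1.02 (adjusted p = 0.00324). The calls of the last 2 were lost without replicate 1 or 2 of 1MWT or replicate 3 of *1mlpa*, and that of Glyma.05G195000 also without replicate 2 of *1mlpa*, with an adjusted p of up to 0.0278 and 0.0407. The kinase SRK2C (Glyma.02G208500, log2 fold change 1.15, adjusted p = 0.000192), which passes on the ABA and osmotic signal, was higher, and so was AFP2 (Glyma.01G060300, log2 fold change 2.06, adjusted p = 0.00111), which restrains the ABA response. The ARF10 auxin response factor Glyma.13G325200, which the study names with this group, was higher as well (log2 fold change 1.71, adjusted p = 0.000826). The other ARF10 gene, Glyma.12G076200, was not called (log2 fold change -0.11, adjusted p = 0.788, and 0.017 on the log2 scale without replicate 3 of *1mlpa*). Both homologs of ABI5, a bZIP factor that arrests germination under ABA in *Arabidopsis*, overlapped between the lines and were not called. Glyma.10G071700 was at 3.74, 3.28 and 4.31 CPM in *1mlpa* and at 3.39, 4.24 and 3.58 CPM in 1MWT (log2 fold change 0.02, adjusted p = 0.972, with a sign that changed with the scaling and the library left out). Glyma.13G153200 was at 2.53, 2.42 and 3.85 CPM in *1mlpa* and at 2.14, 2.29 and 2.96 CPM in 1MWT (log2 fold change 0.25, adjusted p = 0.597).

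A pair of ABA genes was lower. ABI4, an ERF factor that holds back germination in response to ABA and sugar in *Arabidopsis*, had the homolog Glyma.02G264700 at 9.09, 8.78 and 7.30 CPM in *1mlpa* and at 22.9, 22.9 and 20.8 CPM in 1MWT (log2 fold change -1.40, standard error 0.23, adjusted p = 0.000581). A homolog of the ABA receptor PYR1, Glyma.08G272500, was at 13.1, 19.3 and 17.6 CPM in *1mlpa* and at 48.6, 44.2 and 38.6 CPM in 1MWT (log2 fold change -1.39, adjusted p = 0.000806). It is outside the list and was chosen after its values were seen. Both were called in all 6 fits without 1 library.

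The share of DEGs among regulators of transcription is given by family, with no test between families. Transcription factor families were taken from the tables named above. Of 239 tested genes with a family 75 were higher DEGs and 6 were lower DEGs (median log2 fold change 0.52). Of 16 WRKY genes 12 were higher and 1 was lower (median log2 fold change 1.63), of 14 MYB genes 10 were higher (1.87), of 17 NAC genes 8 (1.34), of 13 trihelix genes 7 (1.10) and of 27 ERF genes 12 higher and 2 lower (0.90). Of 22 bHLH genes 0 were higher and 1 was lower (median log2 fold change 0.13), and of 8 bZIP genes none was called (0.39). Many of these calls were lost in a fit without 1 library. Of the 81 in all families 33 were kept in all 6 such fits, beside 573 of all 1536 DEGs. The 33 include 5 of 13 in WRKY, 2 of 10 in MYB, 5 of 8 in NAC, 5 of 7 in trihelix and 7 of 14 in ERF genes. The WRKY23 homolog Glyma.10G011300 was at 0.806, 1.72 and 2.86 CPM in *1mlpa* and at 0.0624, 0.107 and 0.111 CPM in 1MWT (log2 fold change 4.22, adjusted p = 0.000387), and it overlaps another gene, whose reads cannot be told apart without strand. Its paralog Glyma.02G010900 had a log2 fold change of 1.44 (adjusted p = 0.000773). The WRKY gene that was lower was Glyma.09G274000 (log2 fold change -2.01, adjusted p = 0.000552). The MYB15 homolog Glyma.20G209700, of a factor known from cold and defence responses, was at 13, 13.3 and 18.2 CPM in *1mlpa* and 3.46, 2.79 and 4.85 CPM in 1MWT (log2 fold change 2.00, adjusted p = 0.000419). The LBD gene Glyma.17G162000, a homolog of LBD38, which represses nitrate uptake genes and anthocyanin synthesis in *Arabidopsis*, was at 9.25, 18.2 and 22.6 CPM in *1mlpa* and at 0.858, 1.44 and 1.66 CPM in 1MWT (log2 fold change 3.66, standard error 0.31, adjusted p = 1.52e-06).

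The trihelix genes included relatives of the HRA1 homolog. Glyma.19G190000 was at 74.6, 91.5 and 113 CPM in *1mlpa* and at 1.42, 15 and 10.1 CPM in 1MWT (log2 fold change 3.40, adjusted p = 0.000309). Glyma.13G149700 was at 115, 104 and 136 CPM in *1mlpa* and at 21.1, 55.4 and 44.1 CPM in 1MWT (log2 fold change 1.55, adjusted p = 0.00057). As in the HRA1 homolog, replicate 1 was the lowest of 1MWT. Both were named after their values were seen.

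Of 4 tested heat stress factors 3 were higher DEGs (median log2 fold change 1.22), and of 17 genes of heat shock and protein folding 5 were higher and 1 was lower (median 0.79). The HSFB1 homologs, of a factor induced by heat that represses transcription, had log2 fold changes of 1.40 (Glyma.11G056200, adjusted p = 0.000233) and 1.12 (Glyma.01G185800, adjusted p = 0.00101, not called without replicate 2 of 1MWT or replicate 3 of *1mlpa*, up to 0.0113). Glyma.11G056200 overlaps another gene. HSFA6B (Glyma.03G157300) had a log2 fold change of 1.33 (adjusted p = 0.00129, not called without replicate 1 or 2 of 1MWT, up to 0.0141). The chaperone gene HSP70-8 (Glyma.01G238600) was at 23.9, 33.5 and 23.4 CPM in *1mlpa* and at 6.46, 7.13 and 10.3 CPM in 1MWT (log2 fold change 1.76, adjusted p = 0.000104).

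Of 13 tested cell wall genes 7 were higher DEGs and 0 were lower, with a median log2 fold change of 1.45, and 0 of these calls were kept in all 6 fits without 1 library. Xyloglucan endotransglucosylases cut and rejoin wall polymers as cells expand. Glyma.01G013900 of this family was at 3.05, 4.22 and 6.83 CPM in *1mlpa* and at 0.203, 0.193 and 0.618 CPM in 1MWT (log2 fold change 3.76, adjusted p = 0.000853), and the call was lost without replicate 2 of 1MWT. Its paralog Glyma.09G208300 had a log2 fold change of 3.12 (adjusted p = 0.00197, not called without replicate 1 or 2 of 1MWT or replicate 3 of *1mlpa*, up to 0.021), and the pectinesterase Glyma.03G215800 one of 2.5 (adjusted p = 0.00214, lost without the same libraries, up to 0.0184). Genes of polygalacturonase-inhibiting proteins, which protect pectin from fungal enzymes, had some of the highest fold changes of all. Glyma.05G124000 was at 29.4, 61.6 and 126 CPM in *1mlpa* and at 1.37, 3.66 and 5.67 CPM in 1MWT (log2 fold change 4.34, adjusted p = 4.71e-05). Its neighbours on chromosome 5, Glyma.05G123900 (log2 fold change 5.83, adjusted p = 5.9e-05) and Glyma.05G123700 (log2 fold change 6.52, adjusted p = 0.000276), had the same homolog, and reads shared between such copies were not counted. In each of the 3 genes replicate 1 was the lowest and replicate 3 the highest of *1mlpa*.

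Of 14 tested genes of ethylene synthesis and response 6 were higher DEGs and 1 was lower, which is the ABI4 homolog (median log2 fold change 1.40). Of 6 genes of phenylpropanoid and isoflavonoid synthesis 4 were higher (median 1.68), and 0 of these calls were kept in all 6 fits without 1 library. Among them was the chalcone synthase Glyma.11G011500, the entry to flavonoids, at 49.9, 85.7 and 128 CPM in *1mlpa* and 30.6, 25.9 and 31.7 CPM in 1MWT (log2 fold change 1.57, adjusted p = 0.00197, not called without replicate 1 or 2 of 1MWT or replicate 3 of *1mlpa*, up to 0.0218). The GH3 gene Glyma.03G149400, of a family that joins amino acids to hormones, was at 4.88, 4.56 and 11.5 CPM in *1mlpa* and at 0.172, 0.493 and 0.46 CPM in 1MWT (log2 fold change 4.22, adjusted p = 0.000151). Of 5 tested auxin genes, to which it belongs, 2 were higher (median 1.01). Other lists held few DEGs. There was 1 higher DEG among 6 genes of reactive oxygen and glutathione (median log2 fold change 0.79) and 1 among 7 of the cell cycle and histones (0.23). No gene was called among 5 of defence and wounding (1.04) and 7 of photosynthesis (0.02).

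Some of the lower DEGs named by the rules on p-value and expression have known roles in starch and energy use, for which no list was tested. ADP-glucose pyrophosphorylase makes the substrate of starch synthesis, and genes of both of its subunits were lower. The small subunit gene Glyma.02G304500 was at 44.8, 45.3 and 32.6 CPM in *1mlpa* and at 96.7, 129 and 120 CPM in 1MWT (log2 fold change -1.49, standard error 0.22, adjusted p = 0.000207). Glyma.04G011900, a homolog of the large subunit gene APL3, was at 5.69, 6.37 and 5.49 CPM in *1mlpa* and at 17, 29.1 and 18.6 CPM in 1MWT (log2 fold change -1.88, standard error 0.23, adjusted p = 5.03e-05). The homolog of NTT1, which carries ATP into plastids, was at 430, 460 and 455 CPM in *1mlpa* and at 988, 999 and 937 CPM in 1MWT (Glyma.07G033100, log2 fold change -1.12, standard error 0.19, adjusted p = 0.000696). These 3 genes were called in all 6 fits without 1 library. The vacuolar proton pyrophosphatase homolog Glyma.07G028500, which pumps protons with the energy of pyrophosphate, was at 460, 603 and 472 CPM in *1mlpa* and at 1095, 1199 and 965 CPM in 1MWT (log2 fold change -1.09, adjusted p = 0.00293, not called without replicate 1 or 2 of 1MWT or replicate 1 or 3 of *1mlpa*, up to 0.0241). The alpha-glucosidase homolog Glyma.15G133700 was at 43.5, 69.4 and 57.0 CPM in *1mlpa* and at 180, 166 and 148 CPM in 1MWT (log2 fold change -1.54, adjusted p = 0.00208, lost without the same libraries, up to 0.017).

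Other lower DEGs had varied roles. The cytochrome P450 Glyma.03G189900 (CYP76 family) was at 18.7, 43.0 and 23.1 CPM in *1mlpa* and at 227, 164 and 102 CPM in 1MWT (log2 fold change -2.54, adjusted p = 0.000181). The homolog of NAS2, which makes the metal chelator nicotianamine, was at 17.2, 25.5 and 11.4 CPM in *1mlpa* and at 81.1, 67.9 and 62.1 CPM in 1MWT (Glyma.19G228400, log2 fold change -1.96, adjusted p = 0.00264, not called without replicate 1 or 2 of 1MWT or replicate 1 or 3 of *1mlpa*, up to 0.0283). It was named after its values were seen. Glyma.11G082500, a homolog of AT4G35750, was at 9.29, 12.8 and 9.30 CPM in *1mlpa* and at 40.7, 34.5 and 27.5 CPM in 1MWT (log2 fold change -1.71, adjusted p = 4.52e-05). Glyma.18G003100, a homolog of the glucosyltransferase AT4G15550, had a log2 fold change of -2.01 (adjusted p = 6.8e-05).

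The genes with the smallest p-values were higher DEGs, and the 3 leading ones without a name in the sources used here are given by identifier. Glyma.13G095300 was at 25.9, 33.8 and 59.9 CPM in *1mlpa* and at 0.811, 1.2 and 1.89 CPM in 1MWT (log2 fold change 4.93, adjusted p = 8.64e-07). Glyma.06G125800 was at 19.6, 14.9 and 22 CPM in *1mlpa* and at 0.484, 0.643 and 1.11 CPM in 1MWT (log2 fold change 4.65, adjusted p = 9.25e-07). Glyma.15G182600 was at 76.6, 124 and 215 CPM in *1mlpa* and at 4.59, 6.17 and 9.84 CPM in 1MWT (log2 fold change 4.33, adjusted p = 1.52e-06). Among the named ones, the sulfate transporter Glyma.02G145100 was at 19.9, 23.7 and 32.8 CPM in *1mlpa* and at 2.68, 3.15 and 2.5 CPM in 1MWT (log2 fold change 3.20, adjusted p = 1.52e-06). Glyma.04G012300, a phenylcoumaran benzylic ether reductase of lignan metabolism, was at 114, 115 and 138 CPM in *1mlpa* and at 22.5, 25.5 and 22.2 CPM in 1MWT (log2 fold change 2.39, adjusted p = 3.22e-06). Of the most highly expressed higher DEGs, the glutamate synthase homolog Glyma.04G236900, which assimilates ammonium, was at 636, 665 and 744 CPM in *1mlpa* and at 148, 239 and 283 CPM in 1MWT. Its call (log2 fold change 1.61, adjusted p = 0.0072) was lost in each of the 6 fits without 1 library, with an adjusted p of up to 0.0544 without replicate 1 of 1MWT.

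Some DEGs had no counts in 1MWT. Glyma.09G150400 had 37, 93 and 90 counts in *1mlpa* and 0 in each library of 1MWT, at least 28.6-fold higher in *1mlpa* with a floor of 3 counts per library (adjusted p = 0.000106). Glyma.11G180800, a homolog of ABA2, an enzyme of ABA synthesis, had 12, 4 and 27 counts in *1mlpa* and 0 in each library of 1MWT, at least 5.84-fold higher (adjusted p = 0.00736, called only in full and without replicate 2 of *1mlpa*, up to 0.0479 in the other fits without 1 library).

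The DEGs were then followed at the earlier stages and in another pair of lines. The dry and imbibed libraries of *1mlpa* and 1MWT do not enter the stage 3 fold change, but they were part of the 18-library fit that called the DEGs and so bear on its filter, scaling and spread. In dry seeds the 1333 higher DEGs had a median log2 fold change of 0.56 between *1mlpa* and 1MWT (quartiles -0.06 and 1.37), and the median of all tested genes was -0.03. Of these DEGs 287 were also called higher in dry seeds and 18 lower (background 4.34% higher, 4.03% lower). In imbibed seeds their median was 0.76 (quartiles 0.39 and 1.22), with 242 called higher and 2 lower (background 1.98% and 1.57%). The 203 lower DEGs had medians of -0.90 in dry seeds, with 55 called lower and 4 higher, and -0.90 in imbibed seeds, with 73 lower and 1 higher. Only 129 of the higher DEGs and 29 of the lower DEGs were called in the same direction at all 3 stages. No test was made of these counts, since genes are not replicates.

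The same genes in the triple mutant *3mlpa* against 3MWT at stage 3, a pair that took no part in the fit of *1mlpa* and 1MWT and whose *lpa* line also carries *mips1*, had a median log2 fold change of 1.31 for 1320 tested higher DEGs and -0.88 for 197 tested lower DEGs, against -0.07 for all genes tested in both pairs. Of the higher DEGs 500 were called higher and 0 lower (2.89% and 0.754% of the genes tested in that pair), and of the lower DEGs 28 were called lower and 0 higher. The PDC4 homolog Glyma.01G118000 was at 34.1, 50.4 and 71.3 CPM in *3mlpa* and at 1.14, 1.18 and 1.46 CPM in 3MWT. The GDPD1 gene Glyma.19G098500 was at 7.59, 4.41 and 5.90 CPM in *3mlpa* and at 131, 108 and 82.1 CPM in 3MWT. Of the 32 low-oxygen homologs 13 were called higher in *3mlpa* and 0 lower (median log2 fold change 1.32). Of the 2984 genes with a homolog tested in both pairs, 360 were called higher in *3mlpa* and 76 lower. The study's tables of homologs also drew on genes that differed in this pair. Both 5-phosphatase homologs were not called there, with log2 fold changes of 0.94 for Glyma.01G200500 (adjusted p = 0.342) and 1.01 for Glyma.11G041600 (adjusted p = 0.181).

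**Figure D3:**
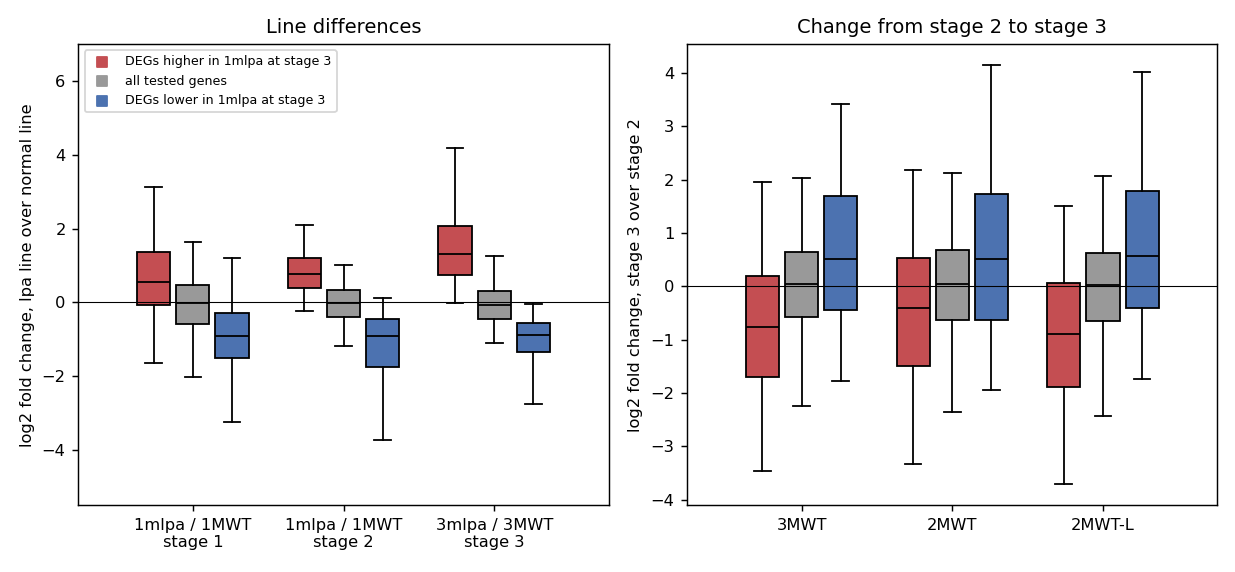
Left, log2 fold changes of an *lpa* line over its normal line outside the stage 3 comparison, where the libraries of stages 1 and 2 shared the fit that called the DEGs and those of *3mlpa* and 3MWT did not. Right, log2 fold changes from stage 2 to stage 3 within 3 normal phytic acid lines of other crosses. Boxes are quartiles with the median as a line and whiskers are the 5th and 95th percentiles, for the higher DEGs (red), all tested genes (grey) and the lower DEGs (blue). On the left the medians of the higher DEGs are 0.56, 0.76 and 1.31, and on the right they are below 0 in the 3 lines while those of the lower DEGs are above 0.

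The course of the DEGs through germination was read in lines with no library in the comparison. From imbibed seeds to radicle emergence the higher DEGs fell by a median of 0.76 on the log2 scale in 3MWT, 0.42 in 2MWT and 0.89 in 2MWT-L, where all tested genes had medians between 0.02 and 0.04. In 3MWT 33.6% of them were called lower at stage 3 than at stage 2 and 5.38% higher (background 10.5% and 9.23%). The lower DEGs had positive medians of 0.50, 0.51 and 0.57 in the 3 lines, and in 3MWT 26.9% were called higher and 11.2% lower. The 3 stage 3 libraries of 2MWT differed, with medians of -0.87, -0.60 and 0.09 for the higher DEGs on a log2(CPM + 1) scale. Set against dry seeds, the median of the higher DEGs was 0.70 in 3MWT and 0.84 in 2MWT, where all tested genes had 0.45 and 0.35, and it was 0.22 in 2MWT-L, below the 0.42 of all tested genes.

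Single genes show these courses in the Mips lines. The PDC4 homolog Glyma.01G118000 was at 10.8, 11.5 and 18.2 CPM in imbibed seeds of *1mlpa* and at 4, 3.89 and 4.96 CPM in those of 1MWT (log2 fold change 1.65, adjusted p = 0.0218). It was higher at stage 3 than at stage 2 in every *1mlpa* library and lower in every 1MWT library. The interaction term of this gene is not given here, so these directions are no test of a change in the line effect. The ACO1 homolog Glyma.05G222400 overlapped between the lines in dry seeds, at 2.80 to 5.91 CPM in *1mlpa* and 3.05 to 5.54 CPM in 1MWT. The GDPD1 gene Glyma.19G098500 was at 7.92, 6.79 and 8.82 CPM in imbibed *1mlpa* and at 115, 42.3 and 72.4 CPM in imbibed 1MWT (log2 fold change -3.29, adjusted p = 3.99e-05). The small subunit gene Glyma.02G304500 was at 14.0, 14.7 and 8.52 CPM in imbibed *1mlpa* and at 46.4, 46.5 and 63.2 CPM in imbibed 1MWT (log2 fold change -2.06, adjusted p = 3.64e-05). MIPS1 (Glyma.11G238800) was a higher DEG before radicle emergence, with log2 fold changes of 2.5 in dry seeds (adjusted p = 3.53e-05) and 1.65 in imbibed seeds (adjusted p = 0.00251).

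**Figure D4:**
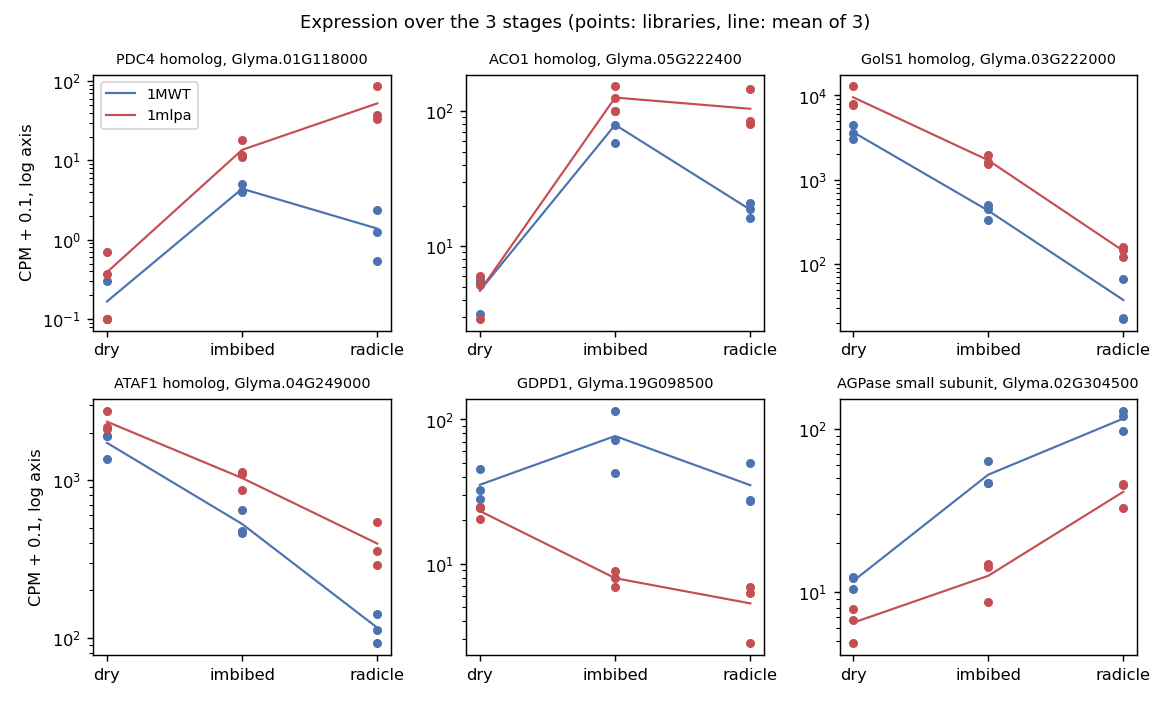
Expression (CPM + 0.1, log axis) of 6 genes in dry seeds, imbibed seeds and seeds with an emerged radicle of 1MWT (blue) and *1mlpa* (red). Points are the 3 libraries of a line and stage and lines join their means. The PDC4 homolog rises from stage 2 to stage 3 in *1mlpa* and not in 1MWT, the GolS1 and ATAF1 homologs fall in both lines and stay higher in *1mlpa*, and GDPD1 and the AGPase small subunit stay lower in *1mlpa*.

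Differences of the effect itself were tested as interaction terms. Between stage 3 and stage 1 the effect of the line differed in 796 genes (FDR under 0.01, 2.51% of those tested), of which 159 were higher DEGs and 17 lower DEGs at stage 3. Between stage 3 and stage 2 it differed in 39 genes (0.123%), 25 of them higher DEGs and 4 lower DEGs. These counts depend on single libraries and on the tool. The 796 were 392, 325 and 647 without replicate 1, 2 or 3 of 1MWT and 467, 427 and 358 without replicate 1, 2 or 3 of *1mlpa*, and the 39 were 8, 5 and 49 and 35, 15 and 9 in the same order. With DESeq2 the numbers were 2381 and 509 genes. Between the Mips and Mips-MRP subsets at stage 3 the effect differed in 84 of 31615 genes (0.266%), 9 of them higher DEGs and 5 lower DEGs, and in 55 without replicate 1 of 1MWT and 52 without replicate 1 of *1mlpa*. The ACO1 homolog Glyma.05G222400 was among the genes whose effect was larger at stage 3 than in dry seeds (log2 difference 2.48, standard error 0.43, adjusted p = 0.0021), as was SRK2C (Glyma.02G208500, difference of 1.18, adjusted p = 0.00506). ITPK1 (Glyma.01G016700) was higher in *1mlpa* and had a log2 fold change of -0.93 in *3mlpa*, a difference of 2.24 (adjusted p = 0.00376).

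Higher DEGs were found on all 20 chromosomes, at 3.18 to 5.48% of the genes tested on each, with the highest share on chromosome 1. Lower DEGs were at 0.336 to 1.07%, with the highest share on chromosome 11, which carries MIPS1, and 1.01% on chromosome 4. Of the genes tested on chromosome 11, 4.90% were higher DEGs. The window of 5 Mb that holds MIPS1 (30 to 35 Mb of chromosome 11) had 17 higher and 2 lower DEGs among 320 tested genes. This share of 5.94% ranked 48 of 194 windows and stands beside 4.85% of all tested genes. It was not tested, since neighbouring genes are not replicates. The window with the highest share of DEGs changed with the window size, among windows with at least 20 tested genes. It was 20 to 25 Mb of chromosome 11 at 5 Mb (7 of 34 genes, 20.6%, the first of 194 windows), 30 to 32 Mb of chromosome 2 at 2 Mb (15%, level with 36 to 38 Mb of chromosome 8, of 327 windows) and 20 to 30 Mb of chromosome 4 at 10 Mb (11.4%, of 104 windows). These are the highest of many windows and were not tested.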

How the data were processed

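The deposited tables hold unnormalized counts of read pairs for each gene, which the authors made by trimming reads with Skewer, aligning them with STAR 2.5.2b to the soybean genome Wm82.a2.v1 and counting pairs with both ends mapped on exons with featureCounts. Strand was not used, and pairs that map to several places were not counted. Columns of samples left unused numbered 0.

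Counts of the 18 libraries of *1mlpa* and 1MWT were fitted together with edgeR 4.0.16 (R 4.3.3, limma 3.58.1), with TMM factors, 1 mean per line and stage, and quasi-likelihood tests. The test took genes whose normalized counts averaged over 10, with p-values adjusted by the Benjamini-Hochberg method. Standard errors were derived from the log2 fold change and the F statistic. In simulated counts 200 of 31682 genes were changed by 2 on the log2 scale. Of the changed genes 91.5% were called, and 3 unchanged genes were called. Each simulated gene had otherwise 1 mean over all stages and a spread taken from the trend. Stage differences and the spread particular to each gene were therefore absent from it. The 36 libraries of both *mips1* subsets were fitted for the difference between subsets. The authors used DESeq2 1.22.2, and DESeq2 1.42.0 was an alternative here.

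Replicate numbers were not treated as pairs, since no source shared by equal numbers is stated. Correlations of deviations at stage 3 were 0.064, 0.048 and 0.155 for equal numbers and between -0.152 and 0.112 for different numbers. Genes and lists were chosen with earlier results of these data known. Search terms of the lists that matched unrelated words were narrowed after the data were seen. Candidates for naming were the genes the study names, the 10 non-overlapping DEGs with the highest and lowest fold change and, in each direction, with the smallest p-value and the highest expression, and up to 4 DEGs of each list, those with a known homolog first. The text gives a selection of them. Others, among them Glyma.04G213900, Glyma.13G035200, the haemoglobin homologs, Glyma.03G189600, Glyma.13G046300, Glyma.03G189700, Glyma.05G124000, Glyma.09G274000 and Glyma.01G060300, were chosen after their values were seen. Alternatives were other scaling factors, filters, thresholds, sets of libraries, a replicate block, fits without 1 library and windows of 2, 5 and 10 Mb. Lists with fewer than 3 tested genes are not reported. Sequences and promoter motifs were not analysed here.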

Additional observations from a re-analysis of the deposited data

Results flagged for a closer look

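The effect of the line differed between stage 3 and stage 1 in 796 genes, between stage 3 and stage 2 in 39 genes and, at stage 3, between the subset of this pair and that of *3mlpa* (Mips-MRP) in 84 genes, by the interaction terms of edgeR's quasi-likelihood test at an FDR under 0.01. At an unadjusted p under 0.05 the numbers were 7501, 3716 and 2434.

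Among the genes named above, the effect at stage 3 minus that in dry seeds was 1.64 on the log2 scale for the sulfate transporter Glyma.02G145100, 1.18 for SRK2C (Glyma.02G208500), 2.48 for the ACO1 homolog Glyma.05G222400, 2.83 for Glyma.13G095300 and 3.17 for Glyma.15G182600. It was -3.44 for the cytochrome P450 Glyma.03G189900, -1.59 for the APL3 homolog Glyma.04G011900, -1.81 for the ABI5 homolog Glyma.13G153200 (2.06 in dry seeds and 0.25 at stage 3) and -5.5 for the NAS2 homolog Glyma.19G228400, whose log2 fold change was 3.53 in dry seeds and -1.96 at stage 3. For Glyma.09G150400 the fitted difference was 13.65. Its size depends on the prior count, since no library of 1MWT had a count at stage 3. It exceeds the highest stage 3 log2 fold change of all tested genes, 8.67, so the fitted effect in dry seeds was negative.

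The effect at stage 3 minus that in imbibed seeds was 3.70 for Glyma.06G125800, 3.11 for Glyma.15G182600 and 4.74 for Glyma.07G011900, the phosphatase homolog, whose log2 fold change was -1.78 in imbibed seeds and 2.96 at stage 3. The effect in the Mips subset minus that in the Mips-MRP subset at stage 3 was 2.24 for ITPK1 (Glyma.01G016700) and -1.93 for the glucosyltransferase homolog Glyma.18G003100, whose log2 fold change was -0.08 in *3mlpa*. Single libraries were not screened for outlying values, since the rule used takes groups of 4 or more.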

How the results depend on the processing

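The 1536 DEGs (1333 higher, 203 lower) were 2373 with 408 lower at an FDR under 0.05, 351 lower without the criterion on the fold change, 170 (164 higher, 6 lower) when tested against a log2 fold change of 1 and 2480 (2028 higher, 452 lower) with the 6 libraries alone. With 1 library left out they were 705 to 1410 (599 to 1258 higher, 75 to 152 lower). DESeq2 gave 2195. A replicate block gave 1742, although no source shared by equal replicate numbers is stated. The 796 genes whose effect differed between stages 3 and 1 were 2381 with DESeq2 and 325 to 647 without 1 library. The 39 between stages 3 and 2 were 123 without a filter, 96 with the replicate block, 509 with DESeq2 and 5 to 49 without 1 library. The 84 between subsets were 217 with 12 libraries and 52 to 83 without 1 library. The germination change of the higher DEGs, -0.76 in 3MWT, was 0.70 against dry seeds, -0.42 in 2MWT and -0.89 in 2MWT-L, and that of the lower DEGs was 0.94 against dry seeds. Glyma.13G035200, at 0.05, was at -0.39 without replicate 2 of 1MWT and -0.06 without replicate 1 of *1mlpa*, within -0.39 to 0.74 over the fits without 1 library. The ABI5 homolog Glyma.10G071700, at 0.02, was at -0.018 with upper quartile factors and -0.088 to 0.12 without 1 library, and the ARF10 gene Glyma.12G076200, at -0.11, was at -0.30 to 0.017 without 1 library. Of 73 named DEGs 47 kept their call under every alternative other than the test against a log2 fold change of 1. The causes were not tested. Counts of a few read pairs per library limit the genes near the floor.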
